A study of Mus musculus with 6 samples.

Results

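Cytosolic ribosomal protein genes encode the proteins of the ribosome that translates nuclear mRNAs. The 72 genes described here were chosen by their symbols (*Rpl* or *Rps* followed by a number, with *Rpsa*, *Rplp0*, *Rplp1* and *Rplp2*), out of 19338 genes in the table, and no measured value entered the choice except that the entry with the higher mean was kept for *Rpl3l*, which has more than 1 entry. They comprise 43 genes of the large subunit and 29 of the small subunit. Of these, 67 belong to the core set of proteins found in most ribosomes. The other 5 (*Rpl3l*, *Rpl7l1*, *Rpl22l1*, *Rpl39l* and *Rps27l*) are paralogs of a core gene.

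Nuclear RNA was sequenced from 6 libraries of mouse embryonic stem cells in which *Yaf2* is deleted (Yaf2-/-) and *Rybp* is flanked by loxP sites (Rybp fl/fl), together with a tamoxifen-inducible Cre recombinase. In the UNT group 3 biological replicates received no treatment. In the OHT group 3 biological replicates were exposed for 96 hr to 4-hydroxytamoxifen at 800 nM, which leads to deletion of *Rybp*, so that the Yaf2 deletion is shared by both groups and all libraries derive from a single edited line. RYBP and YAF2 are subunits of the Polycomb repressive complex PRC1, a repressor of developmental genes. The measurement used is the base mean, which is the number of read pairs on a gene, normalised for library size by the authors and averaged over all 6 libraries. As UNT and OHT libraries enter that mean alike, a difference between OHT and UNT was not analysed here. The depth of each library and the spread between replicates are unknown, and every level below is a single pooled value without an error. Differences between genes are therefore descriptions, and genes that lie close together in an order cannot be separated.

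The labelled cell type was examined first. Of 12 embryonic stem cell markers, 11 had an entry, with base means between 1565 (*Utf1*) and 14300 (*Tdgf1*). The 5 fibroblast markers had base means of 86.8 to 369.3 and the 3 mesoderm markers of 1.35 to 30.3. Among the remaining lists, primitive endoderm markers reached 268.5 (*Gata4*), neural markers 625.4 (*Tubb3*) and trophoblast markers 1131 (*Tfap2c*). *Yaf2* had a base mean of 3.24, below the lower quartile of 23.9 of the 17921 genes with a base mean over 0. *Rybp* had a base mean of 13983, and because OHT and UNT are averaged its deletion cannot be checked from this value.

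Ribosomes are built in the nucleolus, where ribosomal RNA is transcribed by RNA polymerase I and joined by ribosomal proteins that are imported from the cytoplasm. Each core protein is present in about one copy per ribosome, apart from the acidic stalk proteins. Their genes are short, are transcribed by RNA polymerase II in nearly all cells, and are known for an oligopyrimidine tract at the 5′ end of their mRNAs, through which mTOR signalling controls their translation. Several also carry small nucleolar RNAs (snoRNAs) in their introns. In nuclear RNA, unspliced precursor and mature mRNA that has yet to be exported are both present.

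Ribosomal protein genes were among the more abundant genes of the nuclear RNA. Their median base mean was 2651, compared with 302.7 for all genes, and 70 of the 72 lay above the median of all genes, compared with 50.0% of all genes by construction. The median percentile was 87.1, with 61 members in the highest 25% of all genes and 14 in the highest 5%. Together the 72 genes are 0.372% of the 19338 genes and held 1.11% of the base means summed over all 20633 entries. The quartiles of the members were 1648 and 4239.

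**Figure D1:**
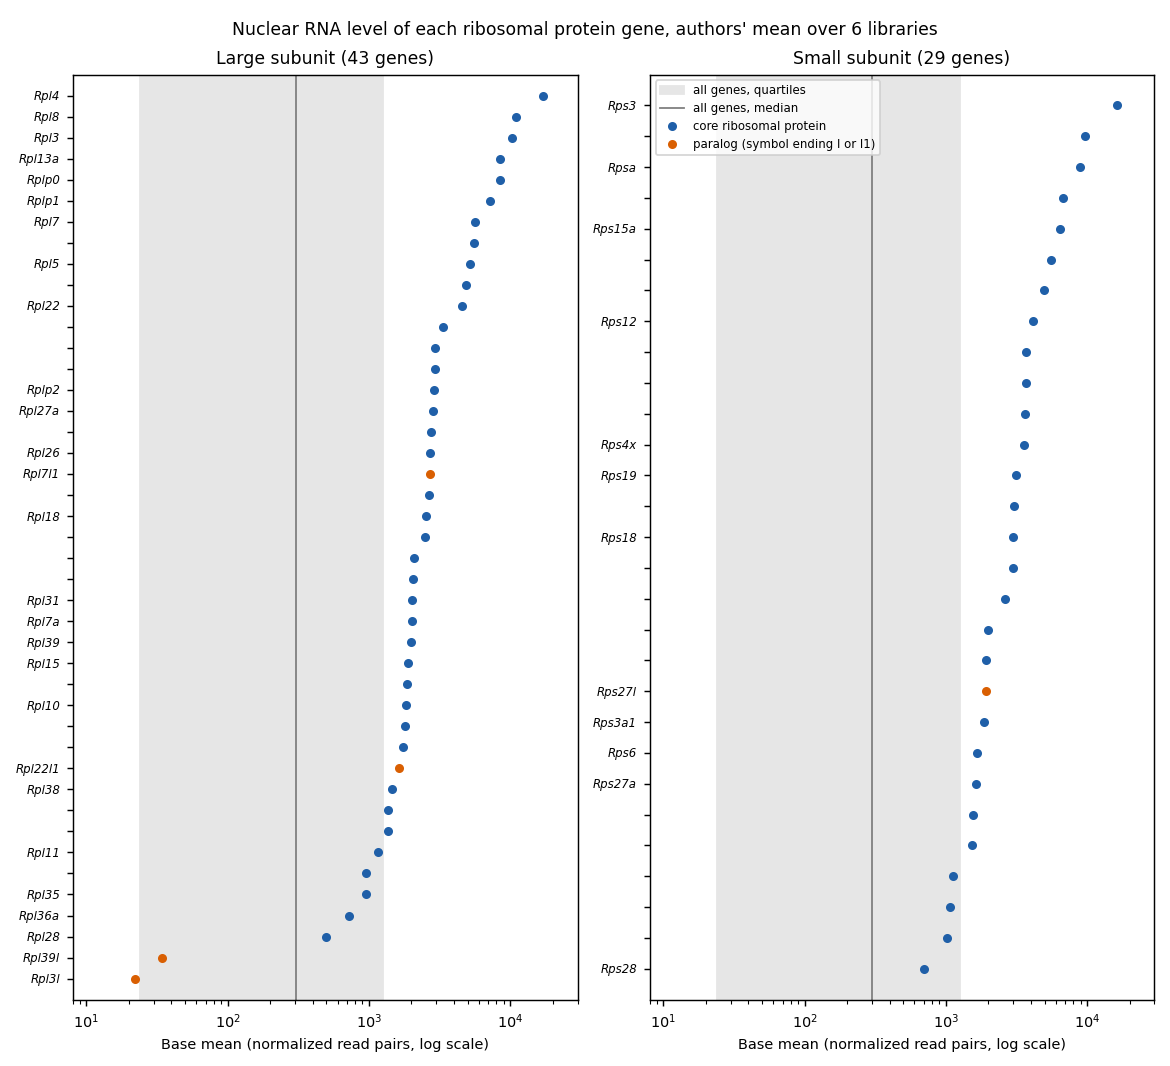
Base mean (normalized read pairs averaged over 6 libraries, log scale) of each of the 43 large-subunit and 29 small-subunit genes, with core genes in blue, paralogs in orange, the names of genes described in the text, and the quartiles and median of all genes in grey. All genes but *Rpl3l* and *Rpl39l* lie to the right of the median of all genes at 302.7.

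The base mean is not divided by gene length, and ribosomal protein genes are short. The span of a member from start site to end had a median of 3232 bp, compared with 20121 bp for all genes, and the spliced transcript a median of 834 bases compared with 2652. Divided by the gene span, the median member had a base mean of 753.7 per kb, which is 53.1 times the median of all genes (14.2 per kb). On this scale 70 of the 72 members lay in the highest 5% of all genes, among them each of the 67 core members, and 34 lay in the highest 1%. Per kb of spliced transcript the median was 2845, or 24.1 times that of all genes, and 57 members lay in the highest 5%. Which of these scales is closer to the way the reads were counted depends on the share of intronic reads, which is not given in the sources used here.

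Among the core members, levels per gene covered a wide range. Per kb of gene span the highest core member (*Rplp1*, 5728) was 25.3 times the lowest (*Rpl28*, 226.4). Per kb of transcript the same genes were 32.2 times apart. Even so, 44 of 67 core members (65.7%) lay within 2-fold of the core median per kb of span. The SD of the log2 level per kb of span was 1.01 over the core members and 3.76 over all genes. Longer core genes tended to have higher base means (Spearman's rho 0.43 with gene span over 67 genes, a description across genes of the same libraries), as did longer genes in general (rho 0.37 over 17696 genes). Over all 72 members rho was 0.34. After division by the span the coefficient for core members was -0.06.

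The highest base mean belonged to *Rpl4*, whose protein lines the tunnel through which the new peptide leaves the large subunit. *Rpl4* (chromosome 9, 64173375 to 64178666 of mm10, plus strand, 10 exons) had a base mean of 16979, which is 3208 per kb of span and 11039 per kb of transcript, at percentile 99.5. *Rps3*, at the entry of the mRNA channel of the small subunit, followed with 16408 (2808 per kb of span, 8600 per kb of transcript). *Rpl8* and *Rpl3*, both of which reach towards the peptidyl transferase centre, had base means of 11024 and 10384. Per kb of span *Rpl8* (4928) lay well above *Rpl3* (1849), as its gene spans 2237 bp and that of *Rpl3* 5616 bp. By base mean these genes stood above percentile 98, as did *Rpsa*, at 8984 (1919 per kb of span and 4636 per kb of transcript). RPSA is also known as the laminin receptor.

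The stalk of the large subunit recruits translation factors to the ribosome and is formed by the P-proteins. *Rplp0*, which anchors the stalk, had a base mean of 8421, *Rplp1* of 7212 and *Rplp2* of 2912. RPLP1 and RPLP2 form dimers on RPLP0. Per kb of gene span, *Rplp1* (chromosome 9, 61913284 to 61914542, minus strand) had the highest level of all members at 5728, and among the stalk genes *Rplp0* followed at 1976 and *Rplp2* at 690.7. Per kb of transcript the order was the same, with 14452 for *Rplp1*, 6201 for *Rplp0* and 3021 for *Rplp2*. The genes of the dimer partners thus differed by 2.48 times by base mean, 8.29 times per kb of span and 4.78 times per kb of transcript. The RefSeq start of *Rplp2* lies 281 bases inside the transcript model used for its lengths, and the part of this in the ratios was not tested.

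*Rpl5* and *Rpl11* encode the proteins that bind 5S ribosomal RNA, and their free complex with this RNA is known to bind MDM2 and stabilise p53. *Rpl5* had a base mean of 5176 (608.7 per kb of span, 2531 per kb of transcript, percentile 94.7) and *Rpl11* of 1166 (318.3 per kb of span, 1400 per kb of transcript, percentile 73.5). *Rpl5* lay above *Rpl11* on each scale. *Rpl5* hosts 3 annotated snoRNAs and overlaps *Fam69a* on the opposite strand by 953 bp, and their part in its level was not tested. *Rps19*, the first gene found mutated in Diamond-Blackfan anaemia, had a base mean of 3127 at percentile 89.5 (614.1 per kb of span and 4941 per kb of transcript).

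At the other end of the core members, by base mean, stood *Rpl28*, *Rps28* and *Rpl36a*. *Rpl28* had a base mean of 496.6 (226.4 per kb of span, 449.0 per kb of transcript), at percentile 57.9. *Rps28*, a small protein near the exit of the mRNA channel, had 696.4 (456.0 per kb of span, 1776 per kb of transcript), and *Rpl36a* 721.5 (300.2 per kb of span, 1494 per kb of transcript). Even the lowest of these genes lay above percentile 95 per kb of span. *Rpl28* overlaps *Ube2s* on the opposite strand by 521 bp. Of the core proteins whose symbols fall outside the pattern, *Rack1*, a scaffold protein on the small subunit, had a base mean of 15741. *Fau*, which encodes a fusion of a ubiquitin-like domain with a ribosomal protein, had 358.4. *Fau* thus lay below *Rpl28*, also per kb of span (213.9). *Rps27a*, the ubiquitin fusion among the members, had 1629.

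The X chromosome carries 4 members. *Rps4x* had a base mean of 3569 (801.2 per kb of span, 3660 per kb of transcript, percentile 91.0), *Rpl39*, a very small protein of the exit tunnel, 1985 (688.6 per kb of span, 3244 per kb of transcript) and *Rpl10*, which joins the large subunit late in its assembly, 1830 (787.6 per kb of span, 2291 per kb of transcript). With *Rpl36a* their levels per kb of span ran from 300.2 to 801.2, within the range of the autosomal core genes. The members lie on 19 chromosomes in all, with 14 of them on chromosome 7. How all genes divide among the chromosomes was not counted.

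The large and small subunits are needed in equal number. Per kb of span the median large-subunit member (690.7) was 0.862 times the median small-subunit member (801.2). Among core members the ratio per kb of span was 0.976, with medians of 787.6 and 807.4. The core medians lay further apart on the other scales. Per kb of transcript they were 2531 for the large and 3607 for the small subunit, and by base mean 2522 and 3025. Per kb of span the quartiles of the core groups overlapped, at 505.6 to 1083 for the large and 560.3 to 1689 for the small subunit. No error can be given for these ratios.

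The paralogs fell into separate ranges. *Rpl3l*, which is known from skeletal and cardiac muscle, had entries with base means of 22.0 and 13.0, and *Rpl39l*, known from testis, of 34.5. These were the only members below the median of all genes, at percentiles 24.4 and 27.8. Their core counterparts were far higher, *Rpl3* by 699 times and *Rpl39* by 93.5 times per kb of span. By contrast *Rpl22l1*, *Rpl7l1* and *Rps27l* had base means of 1621, 2706 and 1913, within the range of the core set. Once length was taken into account, *Rpl22l1* stood above *Rpl22*, although *Rpl22* had the higher base mean of 4590. *Rpl22l1* had 818.7 per kb of span and 2937 per kb of transcript, and *Rpl22* had 559.5 and 2238. The RefSeq start of *Rpl22l1* lies 72 bases inside the transcript model used for its lengths, and that of *Rpl22* lies before its model. *Rpl22l1* also overlaps *Gm33051* on the opposite strand by 211 bp. The part of these in the order was not tested. *Rpl7l1*, at 309.3 per kb of span and 1038 per kb of transcript, lay below *Rpl7* at 1675 and 4852. *Rps27l*, which is known as a p53-responsive gene, reached 558.3 per kb of span and 3834 per kb of transcript, and its counterpart *Rps27* was not analysed here. *Rps3a1* shares a stem of its symbol with *Rps3* but encodes an unrelated protein, and had a base mean of 1851 (388.6 per kb of span, 1894 per kb of transcript).

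**Figure D2:**
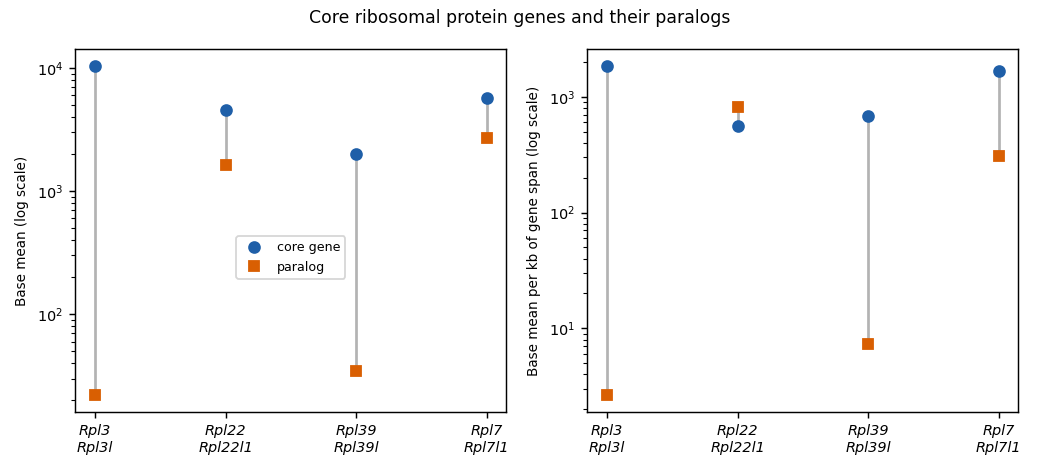
Base mean (left) and base mean per kb of gene span (right), both on a log scale, for 4 core genes (circles) and their paralogs (squares), 1 pooled value per gene. *Rpl3l* and *Rpl39l* lie far below their core genes, while *Rpl22l1* lies below *Rpl22* by base mean and above it per kb of span.

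Ribosomal protein genes were then set beside other genes of translation and ribosome production. The 72 mitochondrial ribosomal protein genes, which serve the separate ribosome of mitochondria, had a median base mean of 648.8 and a median of 86.1 per kb of span, and 8 of them lay in the highest 5% of all genes per kb of span. Translation factors had a higher median base mean than the members (4804 over 36 genes) but a lower level per kb of span, at 327.2. The elongation factor genes *Eef1a1* (8364 per kb of span) and *Eef2* (4069 per kb of span) were high in this list, the first above every member, and *Eif3h* (71.7 per kb of span) far below them. Ribosome assembly factors had a median of 131.0 per kb of span over 34 genes. The nucleolar protein gene *Ncl* reached 2151, and *Nop56*, a core protein of snoRNA particles, 1582. Subunits and factors of RNA polymerase I had a median of 98.3 per kb of span over 13 genes. By median level per kb of span the ribosomal protein genes thus came first of these lists, and by base mean they came after translation factors and assembly factors (median 3022).

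**Figure D3:**
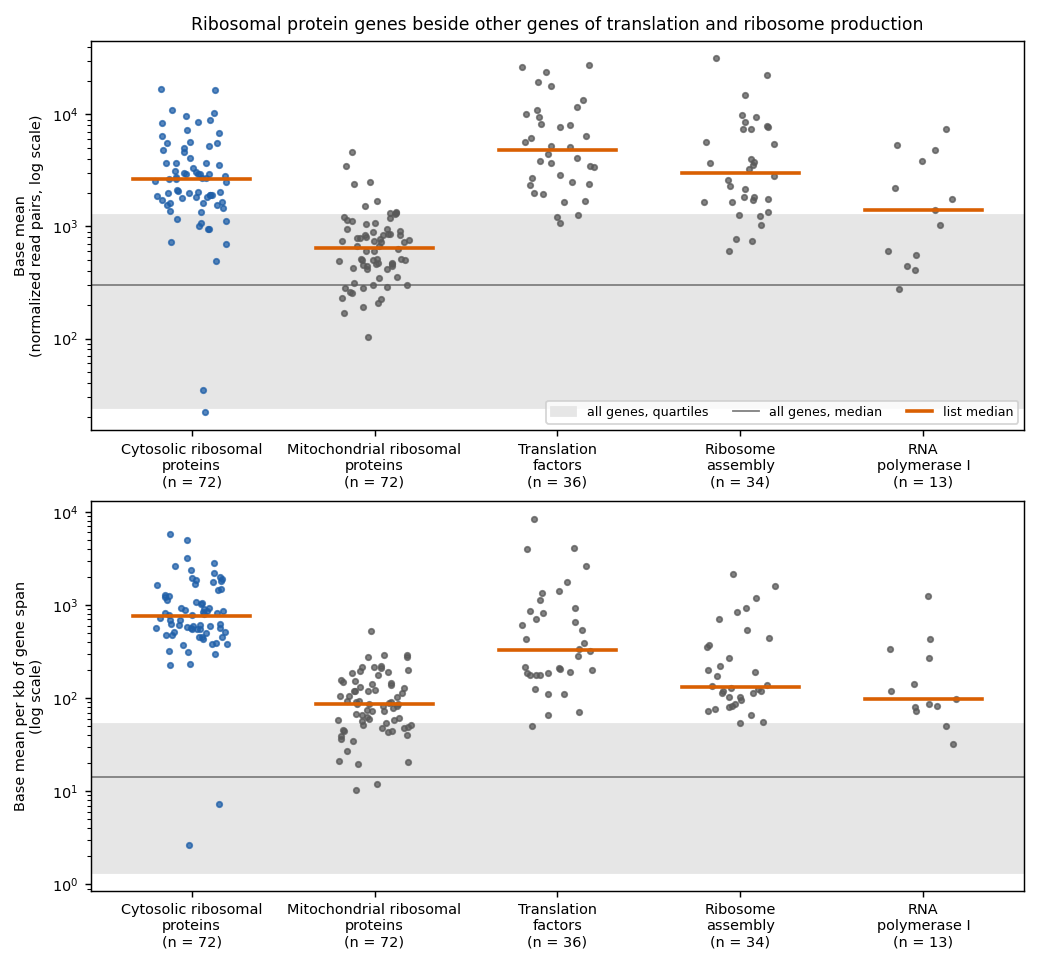
Base mean (top) and base mean per kb of gene span (bottom), both on a log scale, for ribosomal protein genes and 4 related gene lists, with 1 point per gene, the list median in orange and all genes in grey. Per kb of span all but 2 ribosomal protein genes lie above 226, while most genes of the mitochondrial and assembly lists lie below that value.

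snoRNAs guide the chemical modification of ribosomal RNA and are mostly cut from introns of host genes. In the GENCODE annotation 28 members carry 56 snoRNAs within introns on their own strand, and 15 of these host at least 2. The share of hosts among all genes was not counted. *Rpl4* hosts 5, the highest number, and *Rpl13a* hosts 4 (*Snord32a*, *Snord33*, *Snord34* and *Snord35a*). Hosts included 19 large-subunit and 9 small-subunit genes. Their median base mean per kb of span was 869.7, compared with 600.8 for the 44 other members, a ratio of 1.45. The ranges overlapped widely, from 378.8 to 3208 for hosts and from 2.64 to 5728 for the others. Per kb of spliced transcript the order of the medians turned, with 2776 for hosts and 2845 for the others, a ratio of 0.976. Of the 20 members with the highest level per kb of span 10 were hosts, and of the 20 lowest 6 were, compared with 28 of all 72 members. All hosts were core members. Reads from the snoRNAs themselves lie within the gene span, and their part in the counts was not tested.

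**Figure D4:**
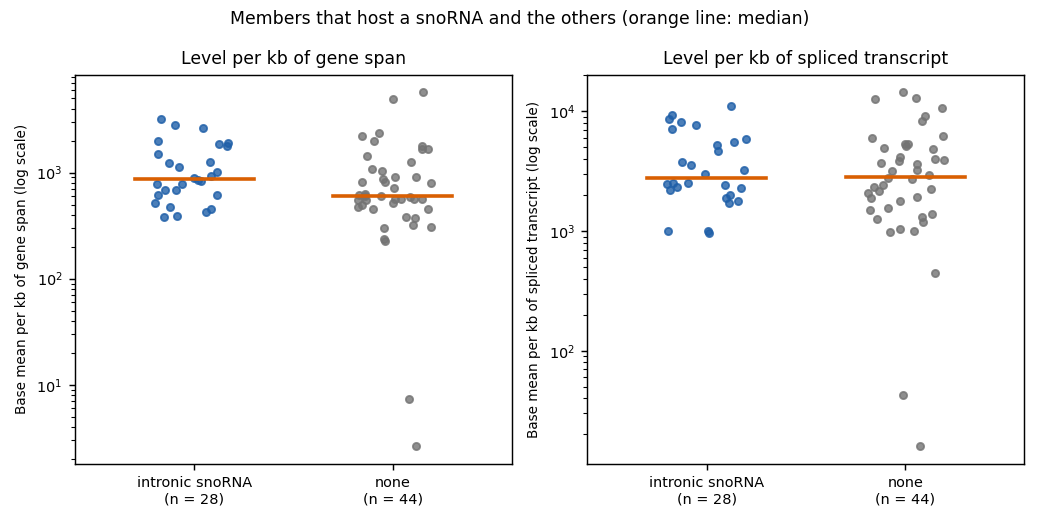
Level of the 28 members with an intronic snoRNA and the 44 without, per kb of gene span (left) and per kb of spliced transcript (right), on a log scale, with 1 point per gene and the median in orange. The host median is higher on the left (869.7 compared with 600.8) and slightly lower on the right (2776 compared with 2845).

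Start sites were examined in the RefSeq promoter windows of GRCm38.p6, which reach from 250 bases before to 50 bases after the annotated start and were found for 54 members. A run of at least 6 C or T letters that covers a base within 5 of the start was present in 25 of the 54 members (46.3%), compared with 20.5% of 15190 genes of the table and 25.4% of mitochondrial ribosomal protein genes. Such a run may end before the start base and so lie outside the annotated mRNA. In *Rpl4*, *Rpl6*, *Rpl10a*, *Rps27l* and *Rpl39l* it does. Runs of at least 8 were present in 35.2% of members and 9.67% of all genes. The annotated first base was C in 33.3% of members and in 14.4% of all genes. Over the first 8 bases, C and T together made up 62.7% of member sequence and 45.7% of all genes' sequence. The annotated starts of 18 members lay within 5 bases of the start of the transcript model used for the lengths, so that the exact start is uncertain for many.

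The following windows of 30 bases (15 before the annotated start, then the start base and those after it, read in the direction of transcription) show the longest C or T run at the start in capitals. All but the last hold such a run. They are core members from the highest (*Rpl4*) to the lowest base mean (*Rpl28*) and a paralog. *Rps3* is shown as a highly abundant member without one at its annotated start.

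Rpl4 (chr9:64173372-64173401, plus strand): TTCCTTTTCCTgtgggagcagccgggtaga
Rpl13a (chr7:45128731-45128760, minus strand): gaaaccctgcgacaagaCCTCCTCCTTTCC
Rpl18 (chr7:45718056-45718085, plus strand): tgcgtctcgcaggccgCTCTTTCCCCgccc
Rpl27a (chr7:109519180-109519209, plus strand): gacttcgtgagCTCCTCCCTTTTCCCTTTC
Rps18 (chr17:33955651-33955680, minus strand): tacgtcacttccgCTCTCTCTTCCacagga
Rpl15 (chr14:18270972-18271001, minus strand): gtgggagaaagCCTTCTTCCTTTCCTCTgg
Rpl38 (chr11:114668565-114668594, plus strand): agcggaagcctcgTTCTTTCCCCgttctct
Rpl28 (chr7:4792950-4792979, plus strand): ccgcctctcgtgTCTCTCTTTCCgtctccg
Rpl39l (chr16:10170213-10170242, plus strand): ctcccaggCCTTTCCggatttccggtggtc
Rps3 (chr7:99483695-99483724, minus strand): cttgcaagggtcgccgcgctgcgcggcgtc

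The windows of *Rpl18*, *Rps18* and *Rpl38* hold a run of 10, 11 and 10 letters, and those of *Rpl15* and *Rpl27a* runs of 17 and 20, part of the last lying beyond the window. *Rpl4* and *Rpl13a*, both highly abundant, each have a run of 14 that reaches past the window, before the start in *Rpl4* and after it in *Rpl13a*. *Rpl28*, the lowest core member by base mean, has a run of 11. The paralog *Rpl39l* has a run of 7 that ends before the start base. *Rps3*, among the highest members, has none at its annotated start, which lies 29 bases inside the transcript model used for its lengths. The 25 members with a run had a median level of 690.7 per kb of span and the 29 without of 608.7, and the ranges of these groups, 7.36 to 3208 and 2.64 to 2808, overlapped. By base mean the order of the medians turned, with 2034 for members with a run and 2627 for those without.

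**Figure D5:**
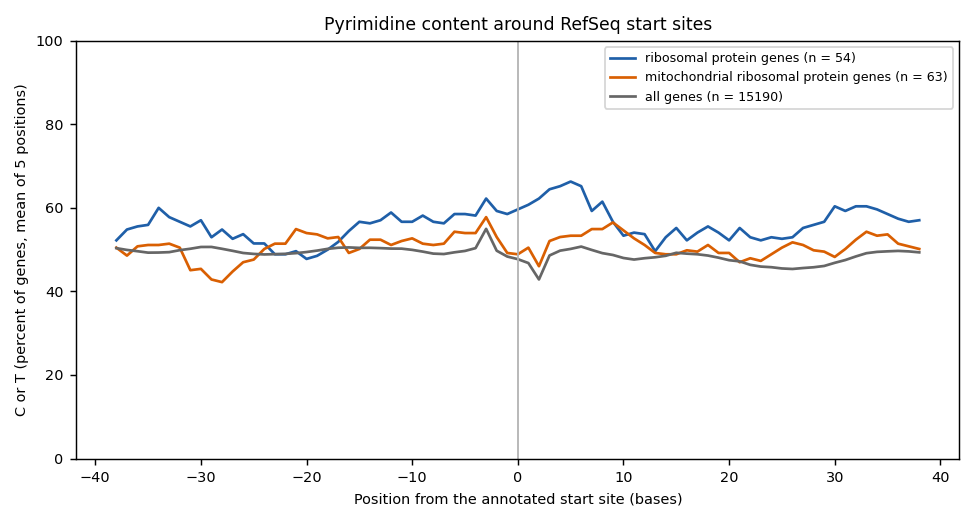
Share of genes with C or T at each position from 40 bases before to 40 bases after the RefSeq start site (mean of 5 neighbouring positions), for 54 ribosomal protein genes, 63 mitochondrial ribosomal protein genes and 15190 genes of the table. The ribosomal protein genes lie above the others just after the start, where C and T make up 62.7% of the first 8 bases compared with 45.7% in all genes.

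Further short motifs were searched in the whole window on both strands. CCGGAA, the core of sites for ETS factors such as GABP, was present in 28 of the 54 members (51.9%), in 57.1% of mitochondrial ribosomal protein genes and in 21.3% of all genes. TCTCGCGA, an element known from promoters of housekeeping genes, was present in 9 members (16.7%) and in 1.71% of all genes, and in 1.59% of mitochondrial ribosomal protein genes. These 9 are *Rpl7a*, *Rpl26*, *Rpl27a*, *Rpl35*, *Rps3a1*, *Rps6*, *Rps15a*, *Rps19* and *Rps28*, named after their sequences were seen, and their base means ran from 696.4 to 6482. AAGATGG, the core of the YY1 site, which can also hold a start codon, was present in 14.8% of members, in 19.0% of mitochondrial ribosomal protein genes and in 6.62% of all genes. TATAAA was present in 9.26% of members, 4.76% of mitochondrial ribosomal protein genes and 10.2% of all genes, and GGGCGG, the core of SP1 sites, in 59.3%, 49.2% and 52.8%. CTTTCC, which consists of C and T alone and can lie within the runs above, was present on the sense strand of the 30 bases around the start in 14.8% of members, 1.59% of mitochondrial ribosomal protein genes and 1.30% of all genes. A match of letters does not show that a factor binds there.

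Of the 80 core ribosomal proteins, 70 had an entry, and *Rpl12*, *Rpl24*, *Rpl27*, *Rpl34*, *Rpl36*, *Rpl37a*, *Rpl41*, *Rps2*, *Rps27* and *Rps29* were not analysed here. The authors had filtered their gene set on size and on mappability of the gene and its start site. Ribosomal protein genes have many processed pseudogenes, and those carrying a gene's own name numbered 0 to 11 (median 1.5) for these 10 and 0 to 24 (median 2) for the 70 with an entry. Pseudogenes under other names were not counted, so the full numbers are not known here. *Rpl31* has 24 pseudogenes of its own name and a base mean of 2034, and *Rps12* has 23 and a base mean of 4122. Reads that align equally well to a gene and a pseudogene may be placed on either, and their share was not tested.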

How the data were processed

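Nuclear RNA was depleted of rRNA and sequenced from 6 libraries, 3 UNT and 3 OHT, as 40 bp paired-end reads with a directional kit. The authors removed rRNA reads with bowtie2 and aligned the rest to mm10, first with STAR and, for reads left unmapped, with bowtie2. They give better mapping of nascent, intronic sequence as the purpose of this last step. The authors counted read pairs by a custom script over RefSeq genes filtered for size (over 200 bp), mappability and unique ends, and ran DESeq2. The deposited base mean is a signal, the authors' mean of normalized counts over all libraries. The other columns of the table hold the authors' own comparison of OHT with UNT (log2 fold change, its standard error, test statistic, p-values and a threshold flag) and were not used. The planned test between OHT and UNT could therefore not be run. Where the sources do not state it (intronic reads, strand), how reads were assigned is not given in the sources used here.

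Entries (20633) were named through the RefSeq table of GRCm38.p6 (20446) and GENCODE vM21 (20560 in all), and spans, transcript lengths and snoRNAs were taken from GENCODE, whose coordinates are those of mm10. Where an entry matched several GENCODE transcripts, the one with the widest span was used. For each symbol the entry with the highest base mean was kept. Percentiles are among genes with a base mean over 0. Promoter windows were those nearest to the transcript model. Each member was given its level, and those described in full were the 5 highest and 5 lowest by base mean, the stalk genes, *Rpsa*, *Rpl5*, *Rpl11*, *Rps19*, X-linked members, paralog pairs and any symbol with several entries, apart from some that are not reported here. Members, lists and tests were chosen with earlier results of these data known, and the motifs other than the pyrimidine run were added later. Searches and percentiles were checked on simulated data. Python 3.11.15, numpy 2.4.6, pandas 2.3.3, scipy 1.17.1 and matplotlib 3.10.9 were used.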

Additional observations from a re-analysis of the deposited data

How the results depend on the processing

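No paired analysis was possible because the values used are means over all libraries, and for the same reason leaving out a replicate, another normalization or a count filter could not be run. The median base mean (2651) was the same with the lowest entry or the mean of entries per symbol, was 2713 over core members, and was 2767 without the 17 members that overlap another gene, the last chosen after seeing the data. The median percentile of 87.1 moved to 98.9 per kb of gene span and 98.1 per kb of transcript, and was 88.1 with genes at 0 included. The ratio of large to small subunit stayed below 1, between 0.688 per kb of transcript for all members and 0.976 per kb of span for core members. The ratio of snoRNA hosts to other members reversed from 1.45 to 0.976 per kb of transcript, by division with another length, and was 1.44 with no division and 1.42 for core members. The share of members with a pyrimidine run (46.3%, exact 95% confidence interval 32.6% to 60.4%, over genes) moved to 66.7% within 15 bases of the start, where 36.6% of all genes had one. The interval treats the members with a window as independent draws and is not an error of measurement.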

Other observations

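Of the 72 members, 17 overlap another annotated gene, 4 of them on the same strand and 14 on the opposite strand. The share of all genes with such an overlap was not counted. *Rpl35* lies wholly within the annotated span of *Wdr38*, which is on the opposite strand, and so do *Rpl7l1* within the lincRNA *Gm26904* and *Rpl35a* within *Gm17106*. *Rpl13* lies wholly within *Gm20388* on the same strand, over 2895 bp, where reads cannot be assigned by strand. The same holds where *Rpl13a* overlaps *Gm45713* (2840 bp), *Rps10* overlaps *RPS10-NUDT3* (4805 bp) and *Rpl19* overlaps *Gm11629* (36 bp). As the setting for strand in counting is not given in the sources used here, reads of the partners on opposite strands could not be told apart either.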
